A study of Mus musculus with 17 samples.

Results

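The genes described here are 49 immediate early and dissociation stress genes, 41 of which are early genes that cells switch on within minutes of a stimulus and 8 of which are heat shock genes that encode chaperones. They were chosen by symbol from a list of genes of known roles that was drawn up with results of these libraries known. Their differences between groups are therefore a description of the list, and the counts of members that passed a test are not independent evidence. All 49 were among the 26556 genes with counts, and all 49 passed the filter on low counts in every comparison. In 45 of them every library held more than 3 counts.

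The data are 17 RNA-seq libraries of astrocytes sorted by FACS from P7 mice of the FVB strain that carry the Gfap::GFP transgene, in which the Gfap promoter drives green fluorescent protein. The cortex gave 4 libraries, and the thalamus gave 13, of which 5 came from the dorsal lateral geniculate nucleus (dLG, visual), 4 from the ventral posteromedial nucleus (VPM, somatosensory), and 4 from the ventral part of the medial geniculate nucleus (MGv, auditory). All groups share the transgene, the age, the pooling of 4 brains per library, digestion with papain, and sorting. No library of undissociated tissue is analysed here, so that what was expressed in the animal and what was induced during dissociation cannot be told apart. Expression is given as CPM, the counts scaled to library size and by edgeR's TMM factors, and values of a group are listed by replicate letter from a on.

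Library totals ranged from 18213687 to 50366363 counts, with cortex replicate a the deepest, and 3 counts correspond to 0.0596 to 0.165 CPM. Replicate c of the dLG had the fewest detected genes, 17749, and is the only library of its library number series, the first digits of the library number in the labels. All 4 MGv libraries belong to the larger series of 10 libraries, together with 2 libraries of each other group, and the other cortex and VPM libraries and 2 dLG libraries form the smaller series of 6. The 10 astrocyte markers summed to 6595 to 15793 CPM. Gfap, the gene whose promoter drives the reporter, was between 8.98 and 19.2 CPM in the VPM and between 36.1 and 5519 CPM in the MGv. The 10 markers of the oligodendrocyte lineage summed to 6957 to 12943 CPM, those of neurons to 362 to 1383 CPM, and those of microglia to 39.6 to 172 CPM. In bulk libraries, fewer cells of a type and less RNA per cell cannot be told apart.

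Immediate early genes are transcribed without new protein synthesis, because the factors that switch them on, such as SRF with its Elk partners and CREB, are already in the cell and are activated by kinases when growth factors, calcium, or mechanical and metabolic stress arrive. Their products are mostly transcription factors (AP-1, Egr, Nr4a, and Klf proteins), followed by inhibitors that end the response, such as phosphatases of MAP kinases and proteins that destabilize early mRNAs. Heat shock genes follow another route, in which unfolded proteins free the factor Hsf1, and Hspa5 follows yet another, the unfolded protein response of the endoplasmic reticulum. In the brain early genes are known as markers of recent activity, and enzymatic dissociation is known to raise them in glia.

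The promoters were searched for the letters of the elements that these routes use. RefSeq (GRCm38.p6) gave a window of 250 bases before to 50 bases after the start for 40 of the 49 genes, 34 early and 6 heat shock. None was given for Arc, Cebpd, Egr1, Egr3, Hsp90aa1, Hspa8, Ier2, Klf10, and Myc. The core of the cAMP response element (TGACG, on either strand), to which CREB and ATF proteins bind, was in the windows of 20 of the 34 early genes (58.8%), Fos, Junb, Nr4a1, and Btg2 among them, against 23% of the 27025 genes with a window, and in 3 of the 6 heat shock genes (50%). The full palindrome TGACGTCA, which contains that core, was in 4 of 34 (11.8%) against 2.03%. A pair of heat shock units facing each other (GAANNTTC or TTCNNGAA) was in 4 of the 6 heat shock windows (66.7%), in 4 of the 34 early windows (11.8%), and in 17% of all genes. The ER stress response element, CCAAT and CCACG 9 bases apart, was found in Hspa5 alone among these genes and in 0.137% of all genes. The CArG box, the SRF site, was in 3 of 34 early windows (8.82%) against 1.81%. The AP-1 site with any base in its middle, TGANTCA, was in 1 of 34 (2.94%) against 8.97%, and the letters of the TATA box (TATAAA) in 11 of 34 (32.4%) against 15.7%. These are matches of letters on either strand and anywhere in the window, and a window without a match says only that the letters are not in it.

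To show these elements, the 250 bases before the start follow for 4 members, with the element in capitals: in Fos the 2 cAMP response element cores and the TATA box, in Btg2 the full cAMP response element, in Hspa5 the ER stress response element, and in Hspa1a the pair of heat shock units. The windows are chr12:85473640-85473889, plus strand, for Fos, chr1:134079156-134079405, minus strand, for Btg2, chr2:34771840-34772089, plus strand, for Hspa5, and chr17:34972157-34972406, minus strand, for Hspa1a.
Fos: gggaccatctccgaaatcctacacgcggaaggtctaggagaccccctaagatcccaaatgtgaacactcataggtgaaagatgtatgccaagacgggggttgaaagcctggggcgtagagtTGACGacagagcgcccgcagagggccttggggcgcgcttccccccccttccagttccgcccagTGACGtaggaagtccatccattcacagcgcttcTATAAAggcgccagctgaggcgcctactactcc
Btg2: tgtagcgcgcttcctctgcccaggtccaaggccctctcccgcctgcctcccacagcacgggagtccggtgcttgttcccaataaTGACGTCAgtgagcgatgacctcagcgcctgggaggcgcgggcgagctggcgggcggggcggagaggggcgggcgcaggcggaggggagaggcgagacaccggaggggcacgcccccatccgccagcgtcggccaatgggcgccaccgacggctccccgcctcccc
Hspa5: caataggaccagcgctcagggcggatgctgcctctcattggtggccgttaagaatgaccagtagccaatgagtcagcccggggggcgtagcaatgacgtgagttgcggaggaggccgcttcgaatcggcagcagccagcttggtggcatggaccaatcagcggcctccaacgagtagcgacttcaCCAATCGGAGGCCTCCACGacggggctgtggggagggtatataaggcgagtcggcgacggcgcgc
Hspa1a: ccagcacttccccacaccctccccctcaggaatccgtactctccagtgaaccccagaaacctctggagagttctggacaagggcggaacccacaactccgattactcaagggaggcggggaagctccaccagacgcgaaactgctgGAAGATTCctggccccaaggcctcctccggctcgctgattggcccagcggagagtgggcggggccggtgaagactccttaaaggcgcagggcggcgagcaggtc

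In Fos the cores begin 129 and 66 bases before the start and the TATA box 33 bases before it. The palindrome of Btg2 begins 166 bases, the element of Hspa5 65 bases, and the pair of Hspa1a 104 bases before the start.

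More early genes had their highest mean in the MGv than in any other region, and more had their lowest in the VPM. Of the 41 early genes, 22 had their highest group mean in the MGv, 9 in the cortex, 6 in the dLG, and 4 in the VPM, and 26 had their lowest mean in the VPM. The 8 heat shock genes had no such order, with 2 genes highest in each of the 4 groups. The summed level of the early genes was 8038 to 10534 CPM in the MGv and 5676 to 7038 CPM in the dLG. It was 2784 to 5604 CPM in the VPM and 2946 to 7524 CPM in the cortex. The heat shock genes summed to 901 to 1266 CPM in the MGv, 858 to 1351 CPM in the dLG, 1248 to 1753 CPM in the VPM, and 1227 to 1566 CPM in the cortex. Hspa5 made up most of these sums, with means of 791 CPM in the MGv and 1103 CPM in the VPM.

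**Figure D1:**
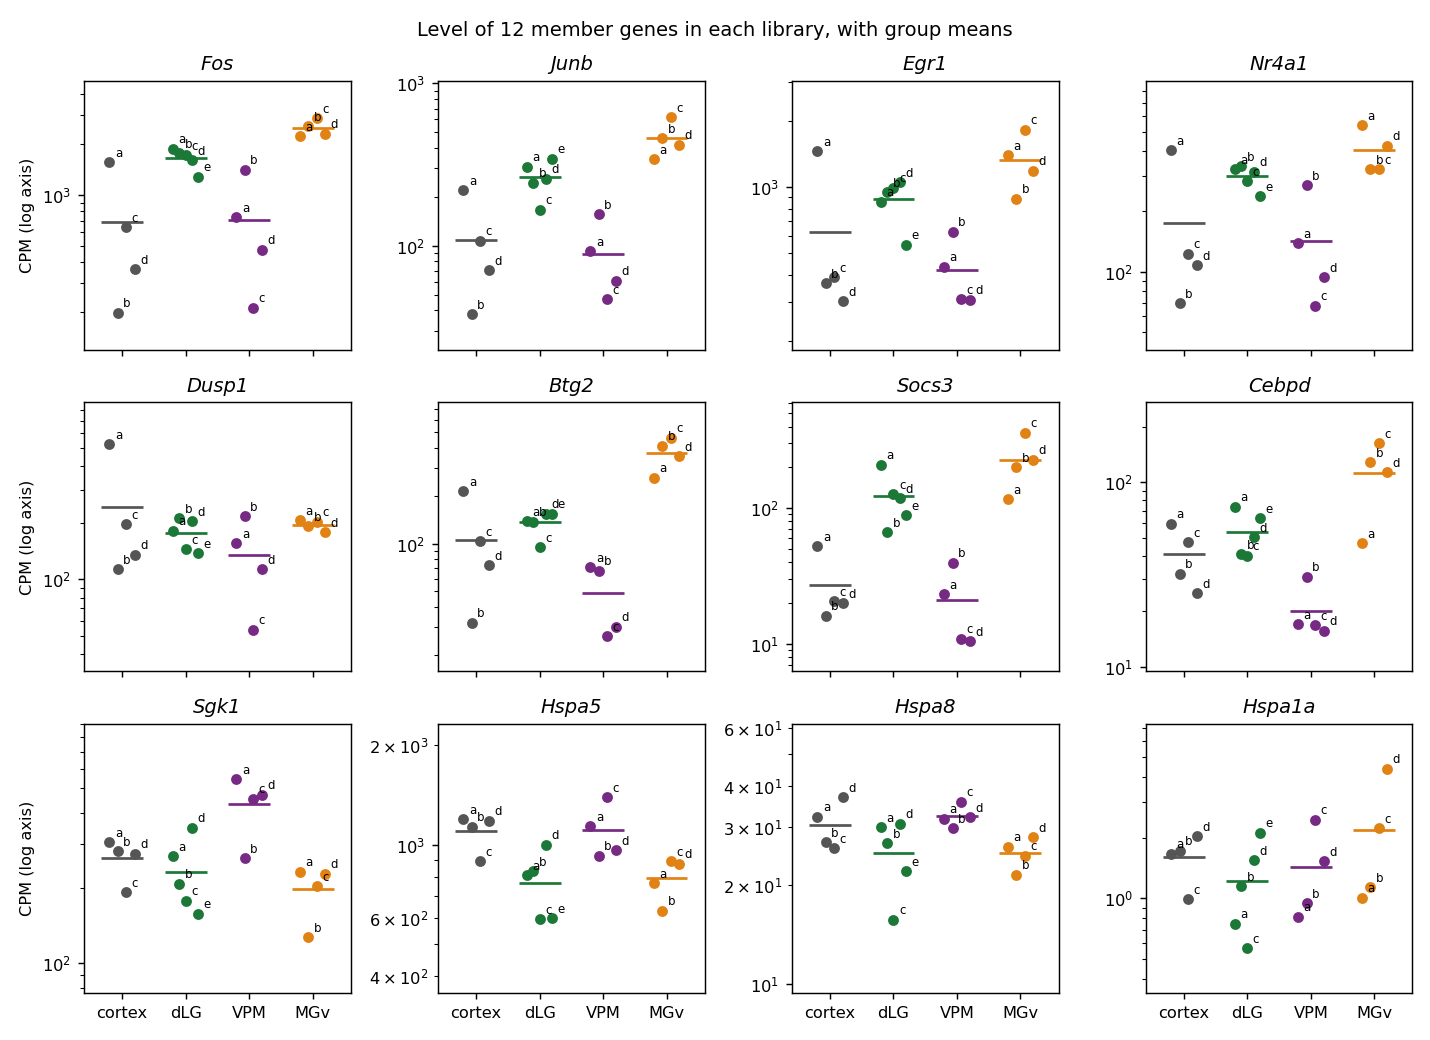
Level of 12 member genes in CPM (vertical log axes) in each of the 17 libraries, by region; points are libraries with their replicate letter, and horizontal bars are group means. Fos, Junb, Egr1, Nr4a1, Btg2, Socs3, and Cebpd have their highest mean in the MGv, Sgk1 in the VPM, and replicates a of the cortex and b of the VPM stand above their groups in Fos and Nr4a1.

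The AP-1 factors, dimers of Fos and Jun proteins, include the most abundant early mRNA. Fos (ENSMUSG00000021250), on chromosome 12 from 85473890 to 85477273 (GRCm38), had on average 597 CPM per kb of exonic length, the highest level per length of the 49 genes, followed by Hspa5 at 219.9, Egr1 at 182, and Ier2 at 155 CPM per kb. Fos was at 2233, 2565, 2857, and 2313 CPM in the MGv libraries, and at 1880.0, 1770.4, 1727, 1616, and 1284 CPM in those of the dLG. In the VPM it was at 737, 1413, 213, and 472 CPM and in the cortex at 1566, 199, 645, and 362 CPM. The group means were 2492 ± 282 CPM (SD, n = 4) in the MGv and 709 ± 516 CPM (SD, n = 4) in the VPM. The MGv libraries all lay above every other library, whereas VPM replicate b overlapped the dLG and cortex replicate a lay within its range. Junb (ENSMUSG00000052837), an AP-1 subunit on chromosome 8 from 84974484 to 84978718, was at 341, 460.3, 620.1, and 418 CPM in the MGv, at 306, 245, 167, 258, and 344 CPM in the dLG, at 92.1, 156, 46.9, and 60.7 CPM in the VPM, and at 220.4, 37.9, 107, and 70.4 CPM in the cortex. Its VPM libraries lay below all libraries of the dLG and the MGv. Jun averaged 513 CPM in the MGv and 191 in the VPM, and Fosb 25.4 and 3.8 CPM. Atf3, a stress-induced bZIP factor, ranged from 8.44 to 26.3 CPM in the MGv and from 0 to 3.18 CPM in the VPM, where replicate c held 0 counts. Fosl2 and Maff stayed at or below 11.6 CPM in every library, and Jund, the least inducible Jun gene, ranged only from 42.6 to 116 CPM. Of the exonic length of Jund, 52.6% overlaps Gm11175 on the other strand, and without knowing the strand setting of the counting those reads cannot be told apart.

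The Egr zinc finger factors and the Nr4a nuclear receptors, which need no ligand, were on average highest in the MGv for Egr1, Egr2, Egr3, and Nr4a1. Egr1 (ENSMUSG00000038418), on chromosome 18 from 34859823 to 34864984, was at 1397, 888, 1828, and 1188 CPM in the MGv, at 859.9, 949, 994, 1054, and 548 CPM in the dLG, at 434, 626, 308, and 308 CPM in the VPM, and at 1456, 366, 390.3, and 302 CPM in the cortex. Cortex replicate a lay within the range of the MGv, and the other cortex libraries within or next to that of the VPM. Egr2, known from Schwann cells and induced with Egr1, was at 73.7, 20.3, 94.7, and 71 CPM in the MGv, at 61.1, 34.2, 38.1, 55.7, and 36.5 CPM in the dLG, at 5.87, 19.5, 3.6, and 6.4 CPM in the VPM, and at 34, 7.91, 4.7, and 6.37 CPM in the cortex. All its VPM libraries lay below all dLG and MGv libraries. Nr4a1 was at 539, 326, 326, and 427 CPM in the MGv, at 324.2, 336, 284, 316, and 239 CPM in the dLG, at 139, 270.0, 67.5, and 94 CPM in the VPM, and at 404, 69.3, 123, and 107 CPM in the cortex. Again VPM replicate b reached the range of the dLG, and cortex replicate a lay above it. Egr3, Nr4a2, and Nr4a3 were low in counts, at no more than 30.9 CPM, and Nr4a2 differed from its relatives in having its highest mean in the cortex (8.31 to 30.9 CPM).

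Among the Klf factors, Klf4 and Klf2, known from endothelium and stem cells, stayed at or below 18.3 CPM, and Klf6 and Klf10 were more abundant. Klf4 was at 8.65, 14.6, 6.37, 13, and 18.3 CPM in the dLG, at 9.57, 10.8, 8.83, and 9.87 CPM in the MGv, at 3.44, 5.8, 1.05, and 1.63 CPM in the VPM, and at 11.1, 1.33, 3.76, and 2.41 CPM in the cortex. The VPM did not overlap the other nuclei. Klf6 averaged 275 CPM in the dLG, 255 CPM in the MGv, and 149.9 CPM in the VPM, whereas Klf10, a target of TGF-beta signalling, averaged 82.5 CPM in the MGv and 112 CPM in the VPM. Cebpd and Cebpb, factors of inflammatory and reactive responses, had their highest means in the MGv. Cebpd was at 46.9, 128, 163, and 114 CPM in the MGv, at 73.8, 40.7, 39.9, 50.5, and 64.1 CPM in the dLG, at 17, 30.7, 16.8, and 15.7 CPM in the VPM, and at 59.6, 31.8, 47.4, and 25.1 CPM in the cortex. Cebpb was at 36.3, 39.3, 37.3, and 25.9 CPM in the MGv, at 21.3, 17.1, 19, 17.5, and 17.2 CPM in the dLG, at 13.6, 16.9, 9.81, and 13.3 CPM in the VPM, and at 29.2, 11.6, 13.3, and 13.5 CPM in the cortex. The MGv lay above the dLG and the VPM in Cebpb, and above the VPM in Cebpd, where MGv replicate a was within the range of the dLG. Of the exonic length, 20.7% of Cebpb and 15% of Cebpd overlap a gene on the other strand. Myc, a driver of growth that serum induces, ran the other way, with 125 to 152 CPM in the VPM and 75.5 to 94.6 CPM in the MGv. Npas4, which neurons induce on depolarization, was the member of lowest level per length, at 0.161 CPM per kb, with 4 libraries at or under 3 counts.

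The Ier genes, named for their immediate early response, differed among themselves. Ier2 was at 374, 498, 415, and 345 CPM in the MGv, at 326, 267, 212, 251, and 259.8 CPM in the dLG, at 153, 224, 98.5, and 109 CPM in the VPM, and at 233, 76.5, 91.2, and 74.8 CPM in the cortex. Ier3 was at 29.4, 37.5, 45.8, and 26.3 CPM in the MGv, at 39.1, 34.2, 38.6, 26.9, and 20.2 CPM in the dLG, at 29.1, 32.4, 24.8, and 21.4 CPM in the VPM, and at 21.7, 13.2, 11.2, and 8.83 CPM in the cortex. The cortex was low in both, apart from replicate a. Ier5 ranged over 29.1 to 59.9 CPM in the MGv, 38.3 to 69.6 CPM in the VPM, and 48.4 to 56.9 CPM in the cortex.

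Among the feedback inhibitors, some were lowest in the VPM without overlap with the other nuclei and some were not. Btg2, an antiproliferative gene induced by p53 and growth factors (ENSMUSG00000020423, on chromosome 1 from 134075170 to 134079120), was at 259, 412, 463, and 353 CPM in the MGv, at 139, 137, 94.5, 154, and 154 CPM in the dLG, at 70.9, 67.6, 26.2, and 30 CPM in the VPM, and at 213, 31.8, 103, and 73 CPM in the cortex. The 3 nuclei did not overlap, and cortex replicate a lay above the whole dLG. Socs3, the inhibitor of JAK-STAT signalling, was at 116, 200.2, 361, and 229 CPM in the MGv, at 209, 66.8, 127, 119, and 89.1 CPM in the dLG, at 23.2, 39.6, 10.9, and 10.4 CPM in the VPM, and at 52.4, 16.1, 20.7, and 19.8 CPM in the cortex. Zfp36, which destabilizes mRNAs with AU-rich elements, was at 68, 62.3, 136, and 88 CPM in the MGv, at 76.5, 44.8, 82.9, 41.4, and 48.6 CPM in the dLG, at 10.8, 22.4, 4.75, and 6.5 CPM in the VPM, and at 33.7, 6.39, 12.9, and 7.77 CPM in the cortex. The VPM and cortex libraries of Socs3 and Zfp36 all lay below those of the dLG and the MGv. The phosphatases of MAP kinases did not share this order. Dusp1, which acts on several MAP kinases, was at 207, 192, 203, and 179 CPM in the MGv, at 182, 211, 145, 205, and 138 CPM in the dLG, at 156, 217, 53.8, and 113 CPM in the VPM, and at 527, 114, 197, and 136 CPM in the cortex. It was highest in cortex replicate a, and the 4 groups overlapped. Dusp5 was at 31.1, 11.1, 14.9, and 13.3 CPM in the MGv, at 25, 30.1, 21.3, 18.6, and 16.2 CPM in the dLG, at 10.6, 18.6, 6.6, and 13.8 CPM in the VPM, and at 11, 7.08, 4.95, and 4.68 CPM in the cortex. A gene on the other strand overlaps 22.1% of its exonic length. Dusp6, the ERK phosphatase, averaged 244 CPM in the VPM and 155 CPM in the MGv. Btg1 was at 63.4, 62.1, 91.5, and 70.3 CPM in the MGv, at 56.1, 52.5, 57.9, 62.5, and 53.5 CPM in the dLG, at 40.2, 47.2, 23.7, and 34.1 CPM in the VPM, and at 105, 80.6, 95.9, and 70.6 CPM in the cortex, with the VPM below the other nuclei. Zfp36l1, a relative of Zfp36, averaged 152 CPM in the MGv and 66.9 CPM in the VPM, and a gene on the other strand overlaps 55.9% of its exonic length. Nfkbia, the inhibitor of NF-kappaB, overlapped between all groups, with 93.8 to 172 CPM in the MGv and 95.8 to 178 CPM in the VPM.

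The remaining effectors were mixed. Gadd45b, a stress gene acting on p38 signalling and DNA demethylation, was at 25.9, 36.8, 60.3, and 31.5 CPM in the MGv, at 32.7, 19.8, 16.1, 24.4, and 32.1 CPM in the dLG, at 8.02, 18.1, 5.25, and 10.2 CPM in the VPM, and at 13.3, 3.74, 9.3, and 5.4 CPM in the cortex. The MGv lay above the VPM without overlap. Gadd45g, its relative, averaged 261 CPM in the MGv and 118 CPM in the VPM, and Ppp1r15a, which reverses the block of translation under stress, 55 and 37.1 CPM. Mcl1 and Rhob, an antiapoptotic protein and a small GTPase, stayed between 103 and 207 CPM in all 17 libraries. Sgk1, a kinase gene that glucocorticoids induce, was at 543, 263, 454, and 472 CPM in the VPM, at 268, 208, 178, 348, and 158 CPM in the dLG, at 232, 127, 203, and 228 CPM in the MGv, and at 304, 281, 193, and 274 CPM in the cortex. VPM replicate b, the VPM library of highest Fos, was the lowest VPM library for Sgk1. Arc, a gene of active neurons, was at most 13.6 CPM, in cortex replicate a, and 0 in dLG replicate c.

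The heat shock genes were steadier between regions. Hspa5, the chaperone of the endoplasmic reticulum also named BiP, was at 1137, 924, 1389, and 963 CPM in the VPM, at 1194, 1132, 891, and 1181 CPM in the cortex, at 765, 632, 891, and 875 CPM in the MGv, and at 809, 831, 594, 999, and 599 CPM in the dLG. Hspa8, the constitutive cytosolic Hsp70, was at 31.8, 29.7, 35.8, and 32.1 CPM in the VPM, at 32.2, 26.9, 25.9, and 37 CPM in the cortex, at 26.1, 21.5, 24.5, and 27.9 CPM in the MGv, and at 30, 26.7, 15.7, 30.7, and 22 CPM in the dLG. In both genes the VPM lay just above the MGv without overlap, and dLG replicate c was the lowest library. Hspa1a, the inducible Hsp70, was at 0.812, 0.948, 2.45, and 1.53 CPM in the VPM, at 1.66, 1.72, 0.989, and 2.03 CPM in the cortex, at 1.01, 1.14, 2.23, and 4.39 CPM in the MGv, and at 0.748, 1.15, 0.567, 1.54, and 2.12 CPM in the dLG. It was among the 3 genes of lowest level per length, with Npas4 and Fosl2, at 0.536 CPM per kb, and its groups overlapped. Its copy Hspa1b reached at most 10.4 CPM, the co-chaperone Dnajb1 ranged from 60.1 to 113 CPM, Hsp90aa1 from 83.7 to 153 CPM, and Hsph1, which recharges Hsp70, from 43.3 to 164 CPM. Hspb1, the small heat shock protein Hsp27, was the exception, at 4.26, 7.55, 5.67, 3.33, and 9.08 CPM in the dLG, at 1.86, 0.725, 1.3, and 2.91 CPM in the VPM, at 1.73, 1.45, 1.04, and 1.31 CPM in the MGv, and at 0.194, 0, 0.346, and 0 CPM in the cortex. The dLG lay above all other libraries, and cortex replicates b and d held 0 counts of it.

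Reads of several heat shock genes cannot be placed uniquely. Of the stretches of 50 bases, the read length, in their transcripts, 60.3% for Hspa1a, 62.3% for Hspa1b, 50.1% for Hspb1, 47.5% for Hsp90aa1, and 37% for Hspa8 also occur in transcripts of another gene, among them Hspa1a and Hspa1b for each other and genes with pseudogene or clone names for the rest. No early gene exceeded 3.12%. How reads with several positions were counted is not given in the sources used here, so the levels of these 5 genes are uncertain, whereas Hspa5, Dnajb1, and Hsph1 shared at most 0.412%.

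**Figure D2:**
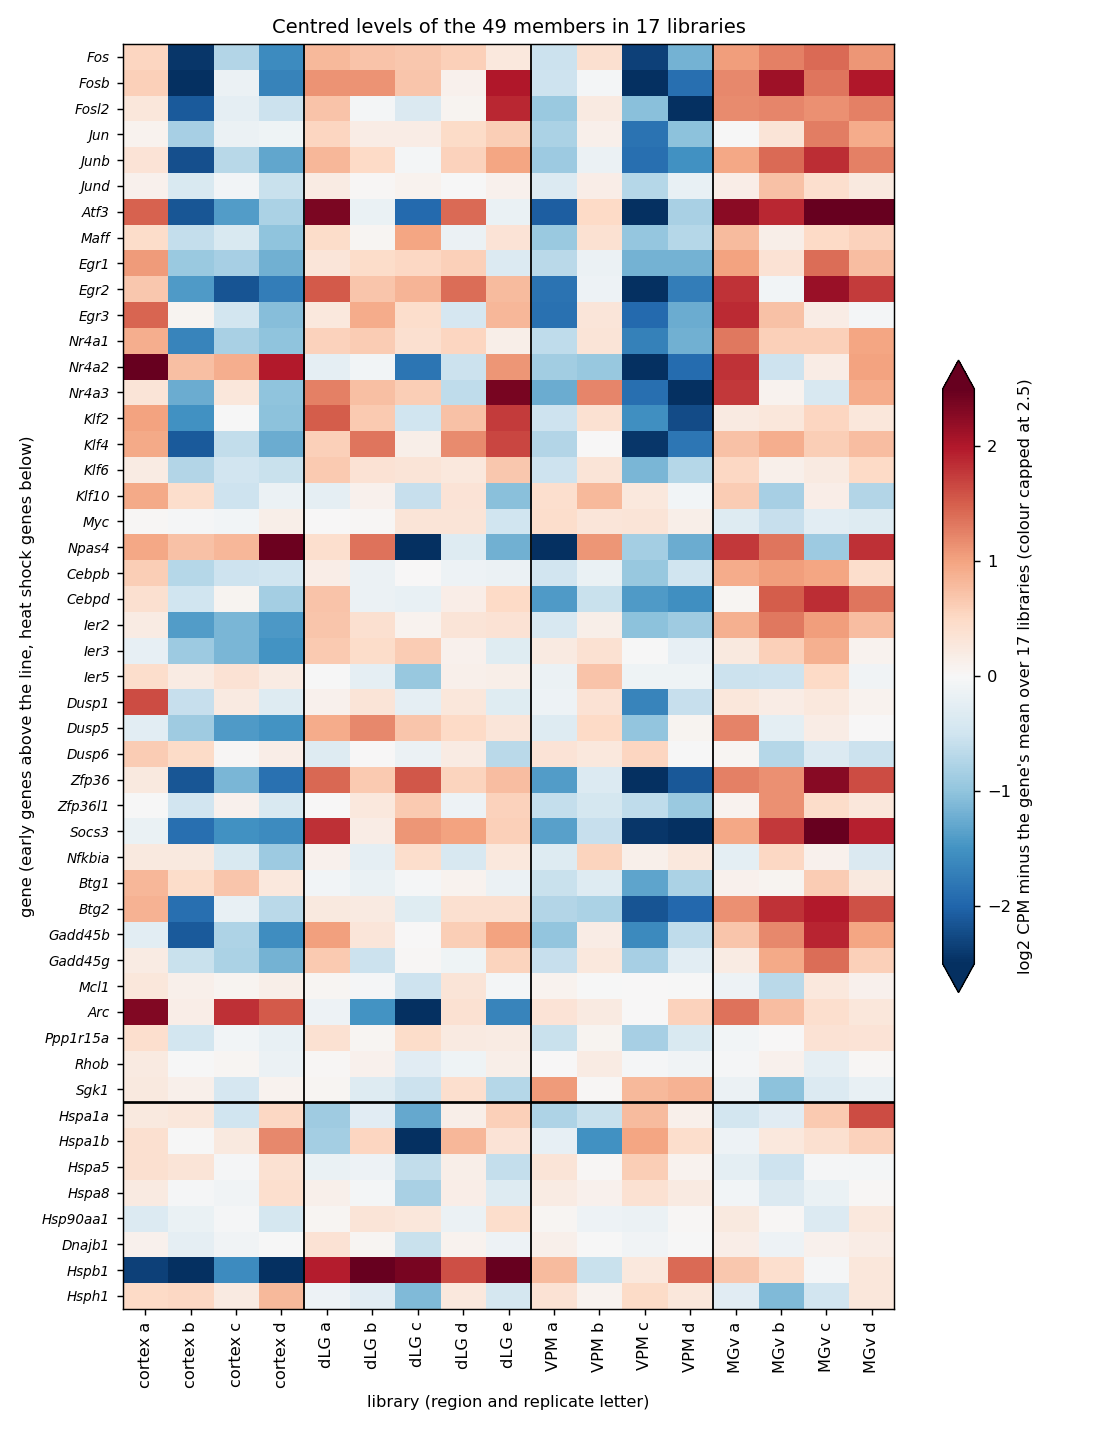
Centred levels of the 49 genes (vertical) in the 17 libraries (horizontal, by region), as log2 CPM minus the mean of the gene over all libraries, with colours capped at 2.5; the horizontal line separates 41 early genes from 8 heat shock genes. Early genes are mostly red in the MGv, the dLG, cortex replicate a, and in part VPM replicate b, and blue in the remaining VPM and cortex libraries, a pattern that the heat shock genes do not share.

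Between the VPM and the MGv, 25 of the 41 early genes were lower in the VPM, 3 were higher, and 13 did not pass the test. The test was edgeR's quasi-likelihood test with a Benjamini-Hochberg adjusted p under 0.1 over all genes tested. None of the 8 heat shock genes passed it. Log2 fold changes (log2FC, with SE) are of the first group named over the second, here VPM over MGv. The lowest adjusted p values were those of Btg2, Cebpd, Socs3, Junb, Cebpb, and Zfp36, all higher in the MGv. Btg2 was 7.83-fold higher (log2FC -2.97 ± 0.32 SE, adjusted p = 0.000169), Socs3 11-fold (log2FC -3.46 ± 0.48 SE, adjusted p = 0.00126), and Zfp36 8.17-fold (log2FC -3.03 ± 0.43 SE, adjusted p = 0.00168). Cebpd was 5.77-fold higher in the MGv (log2FC -2.53 ± 0.35 SE, adjusted p = 0.00126), Junb 5.29-fold (log2FC -2.40 ± 0.34 SE, adjusted p = 0.00145), and Cebpb 2.65-fold (log2FC -1.40 ± 0.20 SE, adjusted p = 0.00165). Among the genes fixed by role, Fos (-1.84 ± 0.39, adjusted p = 0.0146), Egr1 (-1.69 ± 0.27, adjusted p = 0.00322), and Nr4a1 (-1.53 ± 0.33, adjusted p = 0.0164) passed as well, and Dusp1 had a log2FC of -0.57 with an adjusted p of 0.268.

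By role, the MGv was higher in 7 of 8 AP-1 and related factors (all but Maff), in all 3 Egr genes, in Nr4a1 and Nr4a2 of 3, in Klf4 and Klf6 of 4, in Cebpb and Cebpd, in Ier2 of 3, in 5 of 9 feedback inhibitors, and in Gadd45b, Gadd45g, and Ppp1r15a of 7 effectors. The 3 genes higher in the VPM were Sgk1 (log2FC 1.09, adjusted p = 0.0278), Myc (log2FC 0.63, adjusted p = 0.0327), and Dusp6 (log2FC 0.61, adjusted p = 0.0723). Over all 17319 genes tested, 6.89% were higher in the MGv and 4.53% higher in the VPM. The median log2FC of the 41 early genes was -1.22 and that of the 8 heat shock genes 0.07, against -0.04 for all genes tested. In 19 members every MGv library lay above every VPM library, and in 4 the reverse, against 9.29% and 11.7% of all genes tested. Among the heat shock genes, Hspa5 (log2FC 0.44, adjusted p = 0.158), Hspa8 (log2FC 0.34, adjusted p = 0.332), and Hspa1a (log2FC -0.65, adjusted p = 0.579) did not pass, 2 of the 8 had an unadjusted p under 0.05 in edgeR's test, and DESeq2 called 0 of them.

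The difference was present within the larger library number series, where 4 MGv and 2 VPM libraries gave 29 members higher in the MGv and 2 higher in the VPM. Without VPM replicate b it was 29 and 2 as well, and it was 18 and 1 without VPM replicate a. Calls over all genes numbered 1745 within the larger series, 1639 without VPM replicate b, and 712 without VPM replicate a, against 1979 with all libraries. Markers of cell types also differed between the VPM and the MGv. Of the 10 microglial markers 3 were lower in the VPM (Cx3cr1, Tmem119, and Csf1r), and the 10 summed to 39.6 to 54.4 CPM in the VPM and 41.5 to 106 CPM in the MGv, with Itgam at 0 in 2 VPM libraries and the others above 0 in both groups. All 10 had a negative log2FC, with a median of -2.15, and DESeq2 called 8 of them. Of the 10 markers of the oligodendrocyte lineage, 5 were higher in the VPM, among them Mog, and 2 were lower, and the markers summed to 7710 to 12943 CPM in the VPM and 6957 to 8823 CPM in the MGv. Of the 10 astrocyte markers, Gfap (log2FC -7.28, adjusted p = 0.00793) and Sox9 were lower in the VPM, and S100b, Gja1, and Atp1b2 were higher, with sums of 7239 to 9891 CPM in the VPM and 6595 to 15793 CPM in the MGv. Of the 10 neuronal markers, Slc17a7 (log2FC 3.68, adjusted p = 0.00115) and Nefm (log2FC 1.55, adjusted p = 0.0282) were higher in the VPM, with sums of 465 to 1383 CPM in the VPM and 362 to 1365 CPM in the MGv, and Gad2 was at 0 in 1 MGv library. The log2FC was positive in 4 of the 10 neuronal markers and negative in 6, with a median of -0.03. Of the 8 endothelial markers, 6 were tested and only Slco1c1 was called, higher in the VPM (log2FC 0.86, adjusted p = 0.00954). Slco1c1 was at 127 to 901 CPM over the 17 libraries, and no other endothelial marker exceeded 21.7 CPM in any of them. The log2FC was positive in 2 of the 6 and negative in 4, with a median of -0.23. The part of these differences in those of the early genes was not tested.

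**Figure D3:**
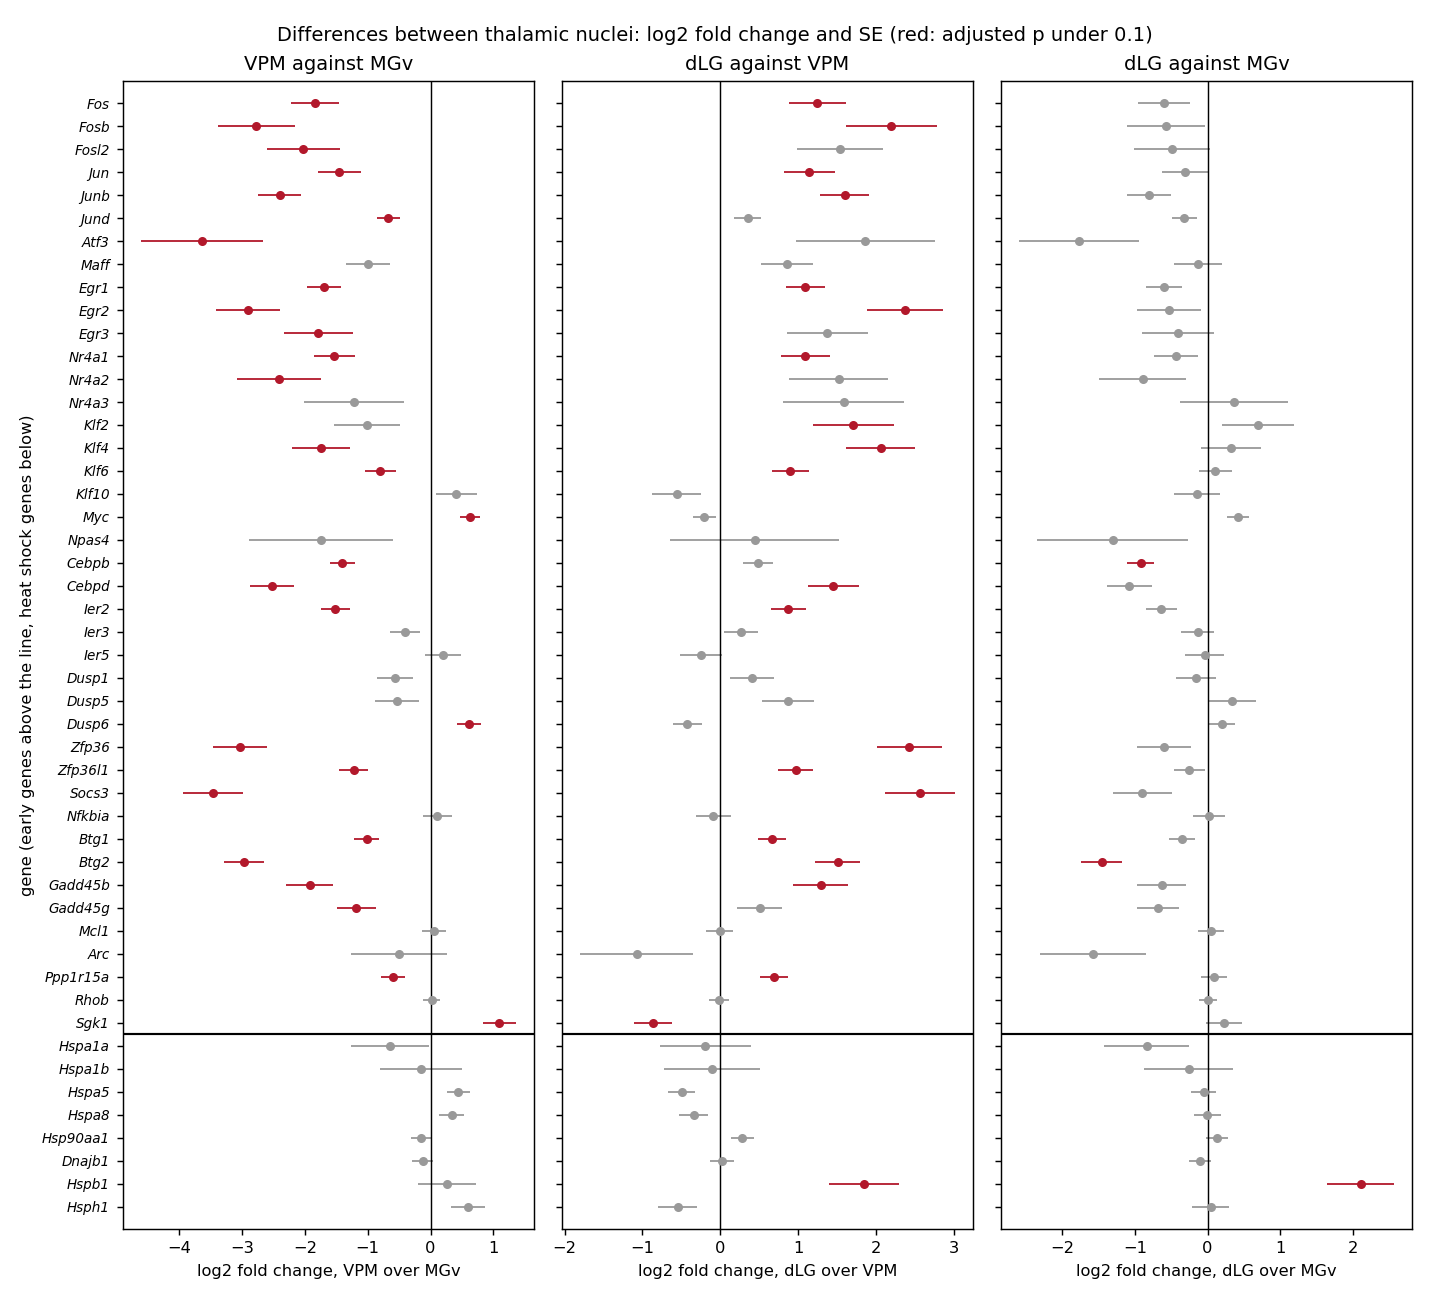
Log2 fold change (horizontal, with SE as bars) of the 49 genes (vertical) in the comparisons between nuclei; red marks an adjusted p under 0.1 in edgeR's test over all genes. In the VPM against MGv panel 25 early genes lie left of 0 in red, in the dLG against VPM panel 19 early genes and Hspb1 lie right of 0 in red, and in the dLG against MGv panel 3 genes are red; the panels share libraries.

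The dLG, the visual nucleus, also had higher levels than the VPM. Of the 49 members, 20 were higher in the dLG, 19 early genes and Hspb1, and Sgk1 was lower. This comparison uses the same 4 VPM libraries as the previous one. The lowest adjusted p values were those of Zfp36, 5.4-fold higher in the dLG (log2FC 2.43 ± 0.41 SE, adjusted p = 0.00782), Socs3, 5.92-fold (log2FC 2.57 ± 0.45 SE, adjusted p = 0.00874), and Btg2, 2.85-fold (log2FC 1.51 ± 0.29 SE, adjusted p = 0.015). Junb was 3.03-fold higher (log2FC 1.6 ± 0.32 SE, adjusted p = 0.0165), Egr2 5.2-fold (log2FC 2.38 ± 0.48 SE, adjusted p = 0.0178), and Klf4 4.18-fold (log2FC 2.06 ± 0.45 SE, adjusted p = 0.0224). Fos (1.25 ± 0.37, adjusted p = 0.0655), Egr1 (1.10 ± 0.25, adjusted p = 0.0306), and Nr4a1 (1.10 ± 0.31, adjusted p = 0.0592) passed too, whereas Dusp1 did not (log2FC 0.41, adjusted p = 0.407). Hspb1 was 3.59-fold higher in the dLG (log2FC 1.85 ± 0.45 SE, adjusted p = 0.0353), and Hspa5 had a log2FC of -0.49 with an adjusted p of 0.11.

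In this pair the dLG was higher in 4 of 8 AP-1 and related factors, Egr1 and Egr2 of 3 Egr genes, Nr4a1 of 3, Klf2, Klf4, and Klf6 of 4, Cebpd of 4, Ier2 of 3, 5 of 9 feedback inhibitors, and Gadd45b and Ppp1r15a of 7 effectors. Of the 17319 genes tested, 6.48% were higher in the dLG and 3.16% in the VPM. The median log2FC was 0.90 for the early genes, -0.15 for the heat shock genes, and 0.01 for all genes. In 13 members every dLG library lay above every VPM library, and in 0 the reverse, against 4.88% and 5.7% of all genes. The count turned on single libraries of both nuclei. It was 28 without VPM replicate b, 9 without a, and 8 without c or without d. Without dLG replicate d it was 27, without a 20, without b 17, without e 16, and without c 21. Calls over all genes moved too. They numbered 413, 1488, 357, and 498 without VPM replicates a, b, c, and d, against 1670 with all libraries. Without dLG replicates a, b, c, d, and e they numbered 1688, 824, 1189, 3147, and 1002. Within the larger series (2 against 2 libraries) 14 members were higher in the dLG, with 96 calls over all genes. Within the smaller (2 against 2) edgeR called 0 of the 48 members tested and 0 of all genes, with 10 members at an unadjusted p under 0.05. Markers of cell types differed in this comparison too. Of the 10 microglial markers 4 were higher in the dLG, with sums of 43.6 to 172 CPM in the dLG and 39.6 to 54.4 CPM in the VPM, and C1qa, C1qb, and Trem2 were at 0 in 1 dLG library each and Itgam in 2 libraries of each group. All 10 had a positive log2FC, with a median of 2.41, and DESeq2 called 9 of them. Of the 10 astrocyte markers, Gfap (log2FC 5.46, adjusted p = 0.0276), Sox9, and Aldh1l1 were higher in the dLG, and Atp1b2 and S100b were lower, with sums of 7998 to 9647 CPM in the dLG and 7239 to 9891 CPM in the VPM. Of the 10 neuronal markers, Gad2 was higher in the dLG (log2FC 4.26, adjusted p = 0.0224) and Slc17a7 lower (log2FC -1.37, adjusted p = 0.0739), with sums of 848 to 1221 CPM in the dLG and 465 to 1383 CPM in the VPM. Of the 10 markers of the oligodendrocyte lineage, Cspg4 was higher in the dLG and Cnp lower. Of the 6 endothelial markers tested, only Slco1c1 was called, lower in the dLG. The other 5, none above 21.7 CPM in any library, had a positive log2FC, and the median of the 6 was 1.42. The part of the marker differences in those of the early genes was not tested.

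The dLG and the MGv, whose levels were both high, differed in 3 members. Btg2 was 2.75-fold higher in the MGv (log2FC -1.46 ± 0.28 SE, adjusted p = 0.0285), and Cebpb 1.89-fold (log2FC -0.92 ± 0.19 SE, adjusted p = 0.0395). Hspb1 was 4.3-fold higher in the dLG (log2FC 2.11 ± 0.46 SE, adjusted p = 0.0653). Fos, although its MGv libraries all lay above those of the dLG, did not pass (log2FC -0.60 ± 0.35 SE, adjusted p = 1). Over all genes, 0.37% were higher in the dLG and 0.277% in the MGv. The median log2FC of the early genes was -0.35, that of the heat shock genes -0.03, and that of all genes 0.00. The 3 calls turned on single libraries: with MGv replicate c left out edgeR called 0 of the 49, with 6 at an unadjusted p under 0.05, and with MGv replicate b or dLG replicate b left out it called 1. Of all genes it called 79, 71, and 66 without MGv replicate c, MGv replicate b, and dLG replicate b, against 112 with all libraries.

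The thalamus exceeded the cortex in 6 members, and the cortex exceeded the thalamus in 2. Hspb1 was 22.4-fold higher in the thalamus (log2FC 4.49 ± 0.94 SE, adjusted p = 0.00384), a value that rests on 9, 0, 7, and 0 counts in the cortex. Ier3 was 2.27-fold higher (log2FC 1.18 ± 0.24 SE, adjusted p = 0.00276), Dusp5 2.55-fold (log2FC 1.35 ± 0.35 SE, adjusted p = 0.0201), Gadd45b 3.1-fold (log2FC 1.63 ± 0.50 SE, adjusted p = 0.052), and Ier2 2.28-fold (log2FC 1.19 ± 0.39 SE, adjusted p = 0.0671). Socs3 passed as well (log2FC 2.17, adjusted p = 0.0964). Btg1 was 1.6-fold higher in the cortex (log2FC -0.68 ± 0.22 SE, adjusted p = 0.066), as was Nr4a2 (log2FC -1.72, adjusted p = 0.074). Fos (log2FC 1.23, adjusted p = 0.196), Egr1 (log2FC 0.48, adjusted p = 0.587), Junb (log2FC 1.31, adjusted p = 0.186), and Dusp1 (log2FC -0.52, adjusted p = 0.366) did not pass.

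Of the 17856 genes tested in this comparison, 5.45% had higher levels in the thalamus and 5.93% in the cortex. The median log2FC was 0.50 for the early genes, -0.09 for the heat shock genes, and 0.02 for all genes. Hspb1 alone did not overlap between the groups, with 1.67% of all genes above in the thalamus and 3.09% above in the cortex without overlap. The count moved most with the cortex libraries. Without cortex replicate a the thalamus exceeded the cortex in 12 members and the reverse held in 0, without b or c the total was 4, and without d it was 3. Over all genes, 1462, 1231, 1502, and 1155 were called without cortex replicates a, b, c, and d, against 2033 with all libraries. With single thalamic libraries left out the total of members called was 6 to 11, with 1765 to 2331 calls over all genes. In the larger series alone 3 members were called, and in the smaller alone edgeR called 0, with 5 at an unadjusted p under 0.05. These 2 settings called 934 and 360 of all genes. Since the thalamus joins nuclei that differ among themselves, a fit of the 4 groups with the nuclei weighted equally was made. It called 14 members and 2787 of all genes.

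Markers of cell types differed between the thalamus and the cortex as well. Of the 10 neuronal markers, Slc17a6 (log2FC 3.01, adjusted p = 0.000193), Nefm, and Nefl were higher in the thalamus and Rbfox3 was lower, with sums of 645 to 827 CPM in the cortex and 362 to 1383 CPM in the thalamus. Of the 10 astrocyte markers, Slc1a3 (log2FC -1.72, adjusted p = 1.78e-09), Aldoc, and Slc1a2 were lower in the thalamus and S100b was higher, with sums of 13262 to 14210 CPM in the cortex and 6595 to 15793 CPM in the thalamus. Pdgfrb, 1 of 5 mural markers, was lower in the thalamus (log2FC -3.74, adjusted p = 1.22e-05), as were the ependymal markers Foxj1 and Dynlrb2. Of the 6 endothelial markers tested, only Slco1c1 was called, also lower in the thalamus (log2FC -2.13, adjusted p = 3.22e-07). In 4 of the 6 the log2FC was positive and in 2 negative, with a median of 1.29, and none but Slco1c1 exceeded 21.7 CPM. Of the 10 microglial markers, Itgam was higher in the thalamus (log2FC 4.94, adjusted p = 0.0804), at 0 in 3 cortex libraries, and the markers summed to 46.7 to 57.1 CPM in the cortex and 39.6 to 172 CPM in the thalamus. The part of these differences in those of the members was not tested.

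Early and heat shock genes also varied differently between libraries of a group. Per gene, the SD of log2 CPM over the 4 cortex libraries had a median of 0.76 for the early genes and 0.24 for the heat shock genes, against 0.29 for all genes tested. In the VPM it was 0.63 and 0.22, against 0.27. It was 0.39 and 0.45 against 0.46 in the dLG, and 0.41 and 0.29 against 0.38 in the MGv. The early genes were thus more spread than other genes in the cortex and the VPM. In each of the more variable groups 1 library was the highest in most early genes. Cortex replicate a was the highest cortex library in 38 of 41 early genes and in 2 of 8 heat shock genes, and VPM replicate b was the highest VPM library in 34 of 41 early genes and the lowest in 5 of 8 heat shock genes. Both belong to the smaller series, as do cortex replicate b, the lowest cortex library in 23 of 41 early genes, and VPM replicate a, the highest VPM library in 5 and the lowest in 3. VPM replicate c, of the larger series, was the lowest VPM library in 24 of 41 early genes. Cortex replicate a was also the deepest library, and VPM replicate b had the highest mitochondrial share, 1.35% against 0.358% to 0.964% in the other libraries. The part of these differences was not tested.

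Summarised as the median over genes of log2 CPM centred on the 17 libraries, the early genes ranged from -1.14 in VPM replicate c to 0.73 in MGv replicate a. The VPM libraries stood at -0.56, 0.21, -1.14, and -0.81, and the cortex libraries at 0.42, -0.71, -0.38, and -0.78. The dLG libraries lay between 0.08 and 0.46 and the MGv libraries between 0.53 and 0.73. The heat shock genes ranged from -0.71 in dLG replicate c to 0.43 in VPM replicate c, the library of lowest early level. The next lowest value after dLG replicate c was -0.21, in MGv replicate b.

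**Figure D4:**
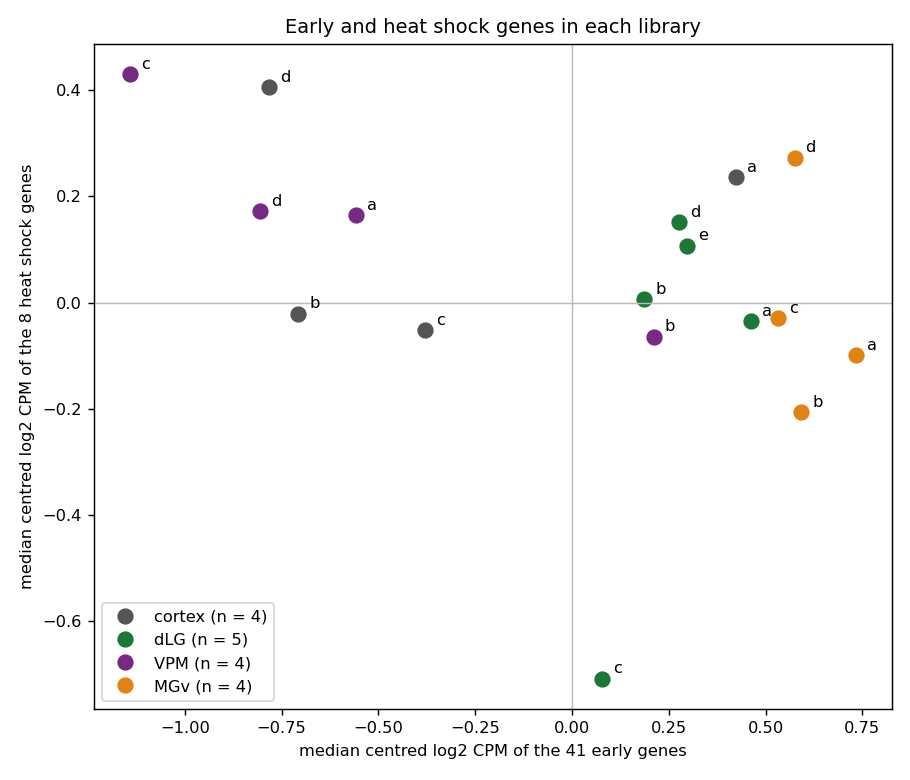
Median centred log2 CPM of the 41 early genes (horizontal) and of the 8 heat shock genes (vertical) in each library, coloured by region, with replicate letters. The MGv and dLG libraries lie right of 0 with cortex replicate a and VPM replicate b, and dLG replicate c is lowest in the heat shock genes at -0.71.

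Other genes of the pathways were read from lists of the same kind. Of 30 further early response genes, 6 were higher in the MGv than in the VPM, against 6.89% of all genes tested, led by Arid5b, a DNA-binding regulator (log2FC -1.0, adjusted p = 0.0132), and Rgs2, an inhibitor of G protein signalling (log2FC -0.72, adjusted p = 0.0327), and Klf9 was lower (log2FC 0.67, adjusted p = 0.0907). Their median log2FC was -0.34. In the dLG 3 of the 30 were higher than in the VPM, against 6.48% of all genes tested, led by Arid5b (log2FC 0.89, adjusted p = 0.0256) and Ier5l (log2FC 1.00, adjusted p = 0.0392). In the thalamus 4 exceeded the cortex (5.45% of all genes did), led by Dusp2 (log2FC 1.27, adjusted p = 0.0192) and Jdp2 (log2FC 0.39, adjusted p = 0.0618), and 4 were lower (5.93% of all genes), led by Ccn1, an integrin ligand induced by serum and YAP (log2FC -1.45, adjusted p = 0.000899), and Nptx2, a pentraxin of excitatory synapses (log2FC -1.23, adjusted p = 0.00152). None of the 30 was called between the dLG and the MGv by edgeR's test, with 2 at an unadjusted p under 0.05 and 1 called by DESeq2.

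Of 16 kinases and factors that switch early genes on, 2 were called between the VPM and the MGv, both higher in the MGv, as were 6.89% of all genes tested, and nothing is read from so small a count. Crtc1, the coactivator of CREB (log2FC -0.93, adjusted p = 0.0324), and Mapk3, which encodes ERK1 (log2FC -0.62, adjusted p = 0.0694), were lower in the VPM than in the MGv, and both were also below the dLG (log2FC 0.90, adjusted p = 0.0373 and log2FC 0.58, adjusted p = 0.083), as was Mef2c (log2FC 1.07, adjusted p = 0.0358). Mef2c, a factor abundant in cortical neurons and microglia, was the gene of this list that was lower in the thalamus than in the cortex (log2FC -2.99, adjusted p = 4.61e-07), and it was higher in the dLG than in the MGv (log2FC 1.15, adjusted p = 0.0892).

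Chaperones beyond the members ran in part in the opposite direction, with a median log2FC of the VPM over the MGv of 0.31 for the unfolded protein response and 0.18 for other heat shock genes. Of 20 genes of the unfolded protein response, 5 were higher in the VPM than in the MGv, against 4.53% of all genes tested. They were led by Pdia3, a disulfide isomerase (log2FC 0.69, adjusted p = 0.0124), and Hsp90b1, the Hsp90 of the endoplasmic reticulum (log2FC 0.64, adjusted p = 0.0426). Against the dLG, 5 were higher in the VPM, as were 3.16% of all genes tested. They were again led by Pdia3 (log2FC -0.57, adjusted p = 0.0314) and Hsp90b1 (log2FC -0.63, adjusted p = 0.0438), and the 2 comparisons share the VPM libraries. Xbp1, Pdia4, and Dnajc3 were lower in the thalamus than in the cortex, as were 5.93% of all genes tested. The lowest adjusted p values were those of Xbp1 (log2FC -0.33, adjusted p = 0.0716) and Pdia4 (log2FC -0.53, adjusted p = 0.0716). Between the dLG and the MGv 0 of the 20 was called by edgeR or DESeq2, and none had an unadjusted p under 0.05. Of 22 other cytosolic and mitochondrial heat shock genes, 3 were higher in the VPM than in the MGv and 3 lower, against 4.53% and 6.89% of all genes tested. No direction is read from these equal counts. Those higher were led by Hspa4 (log2FC 0.61, adjusted p = 0.0519) and Hspe1 (log2FC 0.65, adjusted p = 0.0527). Those lower were led by Bag3 (log2FC -1.09, adjusted p = 0.0361) and Hspb8 (log2FC -3.75, adjusted p = 0.0374), partners in chaperone-assisted autophagy. Hspa4 was also higher in the VPM than in the dLG (log2FC -0.60, adjusted p = 0.0497), and between regions Cryab was higher in the thalamus (log2FC 0.70, adjusted p = 0.0534) and Hspa2 in the cortex (log2FC -1.07, adjusted p = 0.0668). Against the MGv, edgeR called 0 of the 22 for the dLG, with 3 at an unadjusted p under 0.05 and 1 called by DESeq2. Of 10 genes of oxidative and metal stress, Txnip, an inhibitor of thioredoxin, was higher in the MGv than in the VPM (log2FC -1.63, adjusted p = 0.0232) and the dLG (log2FC -1.53, adjusted p = 0.0848), Nqo1 was higher in the dLG than in the VPM (log2FC 1.54, adjusted p = 0.0111), and Gclm was higher in the cortex (log2FC -0.64, adjusted p = 0.000171).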

How the data were processed

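RNA of astrocytes sorted from the cortex and from 3 thalamic nuclei was sequenced as 17 libraries. Per the labels and the study's methods, the authors made the deposited counts per Ensembl gene by adapter trimming with Trim Galore and Cutadapt, quality control with FastQC 0.11.7, alignment with STAR 2.7.0d, SAMtools 1.9, and featureCounts of Subread 1.6.4. The strand setting and the treatment of reads with several positions are not given in the sources used here. Depth was 18213687 to 50366363 counts per library, and 45 of the 49 members held more than 3 counts in every library.

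Of the 26556 identifiers, 26548 were named from GENCODE M21 (GRCm38). Levels are CPM on TMM factors, with a prior count of 0.5 on the log2 scale. Differences were tested with edgeR 4.0.16 (R 4.3.3, limma 3.58.1) by robust quasi-likelihood tests after filterByExpr, with Benjamini-Hochberg adjustment over all genes tested and a threshold of 0.1, in 1 fit of thalamus and cortex and 1 fit of the 3 nuclei. DESeq2 1.42.0 was an alternative, beside size factors, no filter, a threshold of 0.05, the replicate letter, the library number series, 4 groups, and each library left out. The scripts were tested on simulated data. P values measure the spread between libraries, each of which pools 4 brains. No pair of replicate libraries agreed within sampling noise.

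The members and all lists were chosen with earlier results of these data known. Values in every library are given for 8 members fixed by role and, in each comparison, for up to 6 called members of lowest p. Genes of other lists are given as counts, with the 2 of lowest p in each direction named. Other members named with library values (Sgk1) were chosen after their values were seen. Groups were taken from the labels.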

Additional observations from a re-analysis of the deposited data

Results flagged for a closer look

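Over 196 sets of values of 1 gene in 1 region, 7 held a library far from the others by Dixon's criterion, which chance gives in about 1 of 20 sets. In the cortex, replicate a had Egr1 at 1456 CPM, with the next library at 390 CPM, and Cebpb at 29.2 CPM, with the next at 13.5 CPM. Replicate d of the cortex had Npas4 at 2.17 CPM, from 45 counts, with the next at 0.756 CPM. In the VPM, replicate b had Cebpd at 30.7 CPM, with the next at 17 CPM, and Ier5 at 69.6 CPM, with the next at 39.4 CPM. In the dLG, replicate c was far below the others for Btg2, at 94.5 CPM with the next at 137 CPM, and for Arc, at 0 CPM with the next at 0.857 CPM.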

How the results depend on the processing

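No member called in a comparison changed direction under any alternative. The count of called members between the VPM and the MGv, 28, stayed within 1.5 times under each alternative, with 29 by DESeq2, 23 at an adjusted p under 0.05, and 19 to 31 with each library left out. Between the dLG and the VPM, 21 members were called, 0 within the smaller library number series alone (10 at an unadjusted p under 0.05 in edgeR), and 8 (without VPM replicate c or d) to 28 (without VPM replicate b) with each library left out. For the dLG and the MGv, 3 were called, against 0 in a fit of 4 groups (9 at an unadjusted p under 0.05 in edgeR, and 4 by DESeq2 in the 3 nuclei), 1 within the larger series alone, 1 with the series as a covariate, and 0 (without MGv replicate c, with 6 at an unadjusted p under 0.05) to 3 with each library left out. In thalamus and cortex, 8 were called, against 14 in a fit of 4 groups, 3 at an adjusted p under 0.05, 3 within the larger series, 0 within the smaller (5 at an unadjusted p under 0.05 in edgeR), and 3 (without cortex replicate d) to 12 (without cortex replicate a) with each library left out. The number of calls over all genes moved between these settings as well. The cause of these changes was not tested, beyond the smaller number of libraries in the settings that leave some out.

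With the replicate letter as a block, 28, 16, 1, and 6 members were called for the VPM and the MGv, the dLG and the VPM, the dLG and the MGv, and thalamus and cortex, and the letters are not taken to pair the libraries, since those of a shared letter did not deviate together (correlations of -0.157 to 0.219 over 24 pairs, 4 of them over 0.1). The range of the median early level over libraries, 1.87 on the log2 scale, and that of the heat shock genes, 1.14, moved by less than the spread between replicates with a prior count of 2 or with DESeq2's size factors. Low counts limit Arc, Atf3, Hspb1, and Npas4, each with a library at or under 3 counts.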
